A study of Homo sapiens with 4 samples.

Results

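The GATA loci described here are the surroundings of 5 genes of the GATA family of transcription factors, GATA4, GATA6, GATA5, GATA2 and GATA3, in ATAC-seq peak lists of human pancreatic progenitors. ATAC-seq inserts sequencing adapters into open chromatin with the Tn5 transposase, so a pile of reads (a peak) marks accessible DNA. Peaks of the 4 deposited lists were merged into 164301 regions, and every merged region that overlapped a GATA gene body of GENCODE release 44 extended by 50 kb on each side was taken as a member. The rule gave 69 regions: 22 at GATA4, 16 at GATA6, 10 at GATA5, 12 at GATA2 and 9 at GATA3. The 5 genes were picked by name and not by their accessibility.

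GATA factors bind the DNA word GATA through zinc fingers, and several of them can open compacted chromatin for other factors. GATA4 and GATA6 act early in definitive endoderm and in the forming pancreas, and human mutations in either gene impair pancreas formation, those in GATA6 the more severely. GATA5 is known from gut, heart and bladder epithelium, GATA2 from blood progenitors and endothelium, and GATA3 from T cells, trophoblast, ectoderm and kidney.

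The cells were pancreatic progenitors made from the human embryonic stem cell line MEL1, an established line. The labels name the line as MEL1 only, and the MEL1 line in the study's methods is MEL1 INS GFP/W, with a GFP reporter at the insulin gene, which all 4 libraries would then share. The cells were kept in EF6, a DMEM medium with the B27 supplement. It also held the growth factors EGF (50 ng/ml) and bFGF (10 ng/ml) and the TGF-β receptor kinase inhibitor 616452 (10 μM). To this came either DMSO, the solvent, or 1 μM I-BET151, an inhibitor of the BET bromodomain proteins that read acetylated histones. The I-BET151 treatment lasted 7 days, and no time is stated for the DMSO libraries. Each condition had 2 libraries of 50000 cells from this line, and the labels do not state whether they came from separate cultures, so a p-value covers only the spread between these libraries. In bulk libraries a site open in fewer cells and a site less open in each cell cannot be told apart.

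The lists held 82568 peaks (DMSO replicate 1), 38295 (DMSO replicate 2), 84995 (I-BET151 replicate 1) and 111324 (I-BET151 replicate 2) on the chromosomes used. The lists give no read totals. The genome-wide background implied by the peak values was 2.87 and 3.16 reads with DMSO against 0.923 and 1.52 with I-BET151, which makes both DMSO libraries the deeper ones. Fold enrichment is the pileup at the summit over the local background, each plus 1, so the same pileup gives a higher fold in a library with less background. The median fold of a list was 3.88 and 4.08 with DMSO and 5.56 and 6.03 with I-BET151. For that reason a region's fold is given below with its percentile, the share of the peaks of the same list with a lower fold. DMSO replicate 2 stood apart with the fewest peaks, and results are also given without it where it matters. Of 9 pancreatic progenitor markers, 7, 6, 8 and 8 had a peak within 1 kb of the start in the 4 lists in this order, and PDX1 had one only in the I-BET151 lists. These shares of 77.8%, 66.7%, 88.9% and 88.9% stand beside 61.2%, 56.1%, 66.6% and 70.4% of all 20007 protein-coding genes. Of 5 markers of pluripotent cells, 1, 1, 1 and 2 had one, SOX2 in every list and DPPA4 in I-BET151 replicate 2, and the starts of POU5F1 and NANOG had none in any list. Of 4 intestine markers, 3, 2, 2 and 3 had a peak, with CDX2 and VIL1 in every list. Of 4 liver markers, 2, 1, 1 and 1 had a peak, with APOA1 in every list. None of 6 trophoblast and surface ectoderm markers had a peak in any list. Of 6 blood and endothelial markers, 3, 2, 2 and 2 had one, of 6 cardiac markers 3, 1, 3 and 1, and of 4 T cell markers 1 in each list, the same gene (TCF7).

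The regions on which the results turn are shown first, as 201 bases around the summit of the strongest peak, on the plus strand of hg38. Capitals mark the words searched as GATA sites, on either strand, and other words with the letters GATA were left unmarked. These were AGATAA, together with the variants spelled AGATAG, further those spelled TGATAA, and those spelled TGATAG. The GATA6 lines show the start region, a distal region found in all 4 lists and the region found only with I-BET151 whose lower fold was the highest, because their letters differ in the number of GATA words. The other lines show the GATA5 region whose rank rose, the GATA2 region at an internal start, the GATA2 region found only with DMSO, and the GATA3 region found only with I-BET151.
GATA6 start region, chr18:22169386-22169586: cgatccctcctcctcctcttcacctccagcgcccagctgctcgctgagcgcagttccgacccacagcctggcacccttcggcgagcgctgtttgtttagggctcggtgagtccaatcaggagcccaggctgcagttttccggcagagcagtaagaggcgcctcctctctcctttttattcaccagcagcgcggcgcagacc
GATA6 region 40.3 kb upstream, chr18:22129140-22129340: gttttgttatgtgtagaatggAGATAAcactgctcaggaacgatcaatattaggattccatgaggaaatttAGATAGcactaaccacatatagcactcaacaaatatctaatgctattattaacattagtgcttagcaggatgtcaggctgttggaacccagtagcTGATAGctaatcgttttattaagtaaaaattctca
GATA6 intron 2, chr18:22175421-22175621: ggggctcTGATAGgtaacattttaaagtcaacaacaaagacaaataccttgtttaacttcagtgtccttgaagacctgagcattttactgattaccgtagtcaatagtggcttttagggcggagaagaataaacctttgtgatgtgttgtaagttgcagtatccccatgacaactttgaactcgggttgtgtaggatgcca
GATA5 region 45.3 kb downstream, chr20:62430556-62430756: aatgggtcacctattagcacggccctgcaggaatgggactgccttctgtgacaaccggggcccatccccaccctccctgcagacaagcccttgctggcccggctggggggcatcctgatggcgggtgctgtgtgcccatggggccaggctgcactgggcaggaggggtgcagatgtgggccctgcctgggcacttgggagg
GATA2 internal start, chr3:128487992-128488192: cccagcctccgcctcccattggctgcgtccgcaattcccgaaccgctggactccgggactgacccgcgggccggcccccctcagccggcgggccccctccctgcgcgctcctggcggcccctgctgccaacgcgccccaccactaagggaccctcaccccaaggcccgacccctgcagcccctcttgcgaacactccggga
GATA2 region 39.5 kb upstream, chr3:128532603-128532803: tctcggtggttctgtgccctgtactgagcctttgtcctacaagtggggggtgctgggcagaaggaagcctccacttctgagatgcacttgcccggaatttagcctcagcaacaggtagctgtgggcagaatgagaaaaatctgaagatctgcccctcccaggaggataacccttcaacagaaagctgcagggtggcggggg
GATA3 region 3.72 kb upstream, chr10:8050866-8051066: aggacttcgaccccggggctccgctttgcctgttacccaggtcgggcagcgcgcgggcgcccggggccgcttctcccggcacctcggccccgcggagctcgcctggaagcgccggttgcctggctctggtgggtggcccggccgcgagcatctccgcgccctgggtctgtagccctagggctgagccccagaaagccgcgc

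The GATA6 start region and the GATA5, GATA2 and GATA3 windows shown held none of the GATA words listed above. The region 40.3 kb upstream of GATA6 held 3 and the one in GATA6 intron 2 held 1. Over all members, 25 of 69 windows (36.2%) held at least 1 GATA word, beside 32.4% of the windows of all 164301 regions. GATA6 had the most, in 10 of 16 windows (62.5%), followed by GATA3 with 3 of 9 (33.3%), GATA4 with 7 of 22 (31.8%), GATA5 with 3 of 10 (30%) and GATA2 with 2 of 12 (16.7%). The FOXA word TGTTTAC, or its variant spelled TATTTAC, read on both strands like all words here, were in 1 of 69 member windows and in 8.02% of all windows. The HNF6 word ATTGATT, or its variant spelled ATTGATC, was in 3 of 69 and in 6.15% of all, and the CTCF consensus in 0 of 69 and in 1.86% of all. No word is part of another, and a match describes letters only. GATA6 windows had a median GC content of 47.5%, close to the 47.8% of all regions, whereas the medians of the other 4 loci lay between 56.5% (GATA4) and 62.9% (GATA5).

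**Figure D1:**
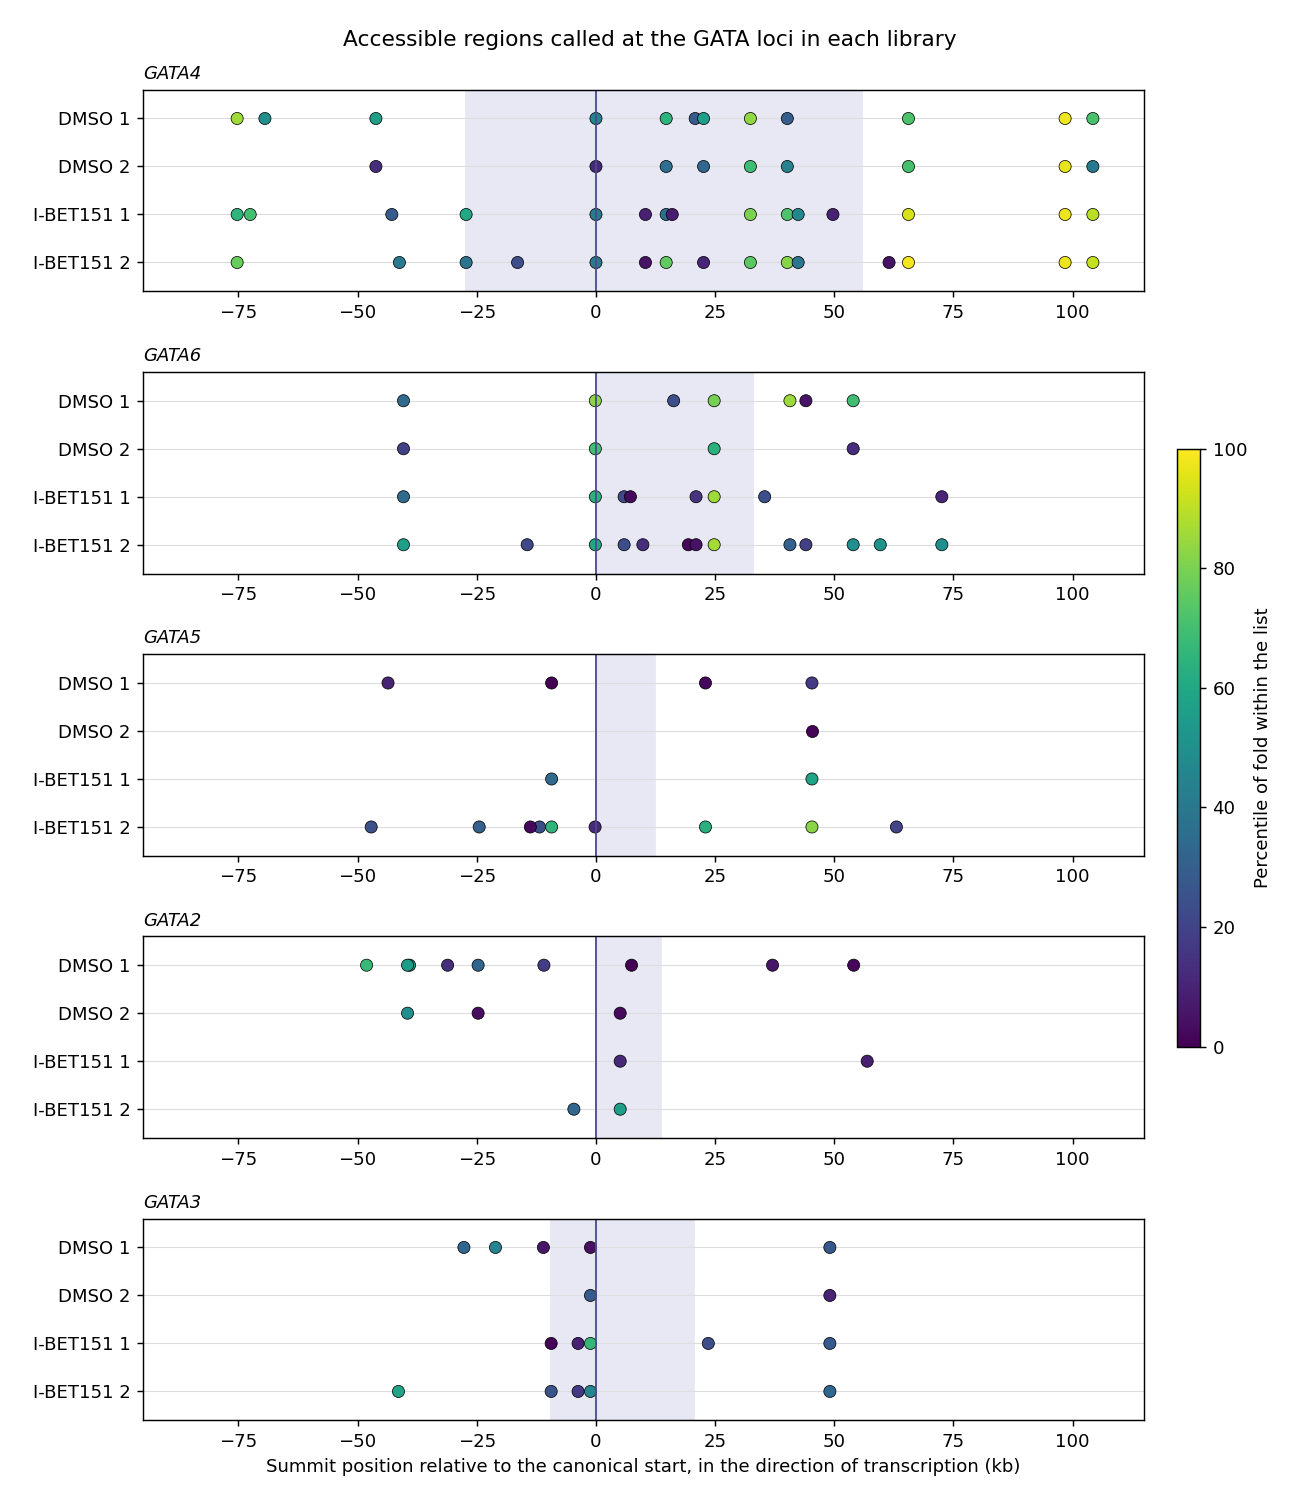
Position of every called region at the 5 GATA loci (x axis, kb from the canonical start in the direction of transcription) in each library (rows), with the gene body shaded and the start as a line. Colour is the percentile of fold within the list. GATA4 and GATA6 have regions repeated down the rows over the start and inside the gene. GATA5 has 9 of its 10 regions in the row of I-BET151 replicate 2, which called 67.7% of all merged regions. GATA2 has 9 of its 12 in the row of DMSO replicate 1, which called 47.9% of all.

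The 2 loci known from endoderm had a peak within 1 kb of their starts in every library, as did GATA3. Such a peak was in all 4 lists for 3 of 5 GATA genes (60%), beside 53.6% of all 20007 protein-coding genes. At GATA4 (chr8:11676959-11760002), the region over the canonical start (chr8:11702984-11704632) had folds of 3.77 and 3.00 with DMSO and 5.15 and 5.40 with I-BET151. Its percentiles were 45 and 11.3 with DMSO and 41.2 and 39.6 with I-BET151, so that both I-BET151 values lay inside the DMSO range. Its rank was compared among the 25627 regions found in all 4 lists, by limma on normal scores of the within-list rank, and did not pass (difference -0.08 ± 0.40 SE, adjusted p = 0.927). The percentile is taken among all peaks of a list and the rank difference among shared regions only, so these measures can differ in sign.

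At GATA6 (chr18:22169589-22202528) the start region (chr18:22169019-22169732), which also holds the start of the antisense transcript GATA6-AS1, stood higher in the lists than that of GATA4. Its folds were 5.27 and 4.93 with DMSO and 6.49 and 6.79 with I-BET151, with no overlap. The percentiles went the other way, from 82.6 and 69.9 to 64.1 and 59.5, again with no overlap. The rank difference was -0.96 ± 0.38 SE and did not pass limma's test (adjusted p = 0.138). The pileups, 54 and 48 reads with DMSO and 49 and 94 with I-BET151, overlapped as raw reads, not scaled to the lower depth of the I-BET151 libraries.

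The 3 other genes differed at their starts. GATA3 (chr10:8045378-8075198) had a region just upstream of its canonical start (chr10:8053380-8053886), shared with the start of GATA3-AS1, in all 4 lists. Its percentiles of 4.10 and 27.9 with DMSO and 66.1 and 45.4 with I-BET151 did not overlap, nor did its folds of 2.76 and 3.43 against 6.71 and 5.75, but the rank difference of 0.71 ± 0.47 SE did not pass (limma adjusted p = 0.364). GATA5 (chr20:62463497-62475995) had a start region (chr20:62476051-62476348) only in I-BET151 replicate 2, with a fold of 3.77 at percentile 11.1. GATA2 (chr3:128479427-128493201) had no region within 1 kb of its canonical start in any list. An internal GATA2 start in intron 1, next to the start of GATA2-AS1, carried a region (chr3:128487743-128488600) with a fold of 2.69 in DMSO replicate 2, 3.96 in I-BET151 replicate 1 and 6.44 in I-BET151 replicate 2, and none in DMSO replicate 1. The DMSO fold of this GATA2 region lay below both I-BET151 folds, and its percentile of 3.07 below 11.3 and 55.2. This rests on 1 DMSO list.

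In all, 13 of the 69 GATA regions (18.8%) were found in all 4 lists, beside 15.6% of all merged regions. GATA4 and GATA6 held 10 of these 13, or 26.3% of their 38 regions, and GATA2, GATA3 and GATA5 held 3, or 9.68% of their 31. Of the 7 at GATA4, 3 lay at starts of neighbouring genes, NEIL2, which encodes a DNA repair glycosylase, and FDFT1, which encodes squalene synthase and had a canonical and an alternative start. Regions seen in 1 list made up 37 of 69 (53.6%), close to the 51.8% of all regions.

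Regions called by both I-BET151 libraries but by no DMSO library (gained) numbered 8 of 69 (11.6%) at the GATA loci, where 17% of all merged regions were gained. They lay at GATA4 (3), GATA6 (3) and GATA3 (2). The endodermal pair had 6 of 38 (15.8%) and the other loci 2 of 31 (6.45%), both at GATA3. Regions called by both DMSO libraries but by no I-BET151 library (lost) numbered 3 of 69 (4.35%), where 2.37% of all regions were lost. They lay at GATA2 (2) and GATA4 (1). These are counts of calls with no test, and the order of the gained shares turned under 2 alternatives. Within 5 kb of the gene bodies 7 of 30 regions were gained (23.3%, beside 17% of all), and with a call only where peaks covered 50% of the region 12 of 69 were gained (17.4%, beside 16.5%).

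Gained GATA4 regions sat at an alternative upstream start and in intron 2. The region at the alternative start (chr8:11676881-11677300) had folds of 6.17 and 5.27 with I-BET151, at percentiles 59.6 and 38.1. In intron 2, the gained region of highest fold (chr8:11746366-11746811, 42.4 kb downstream of the canonical start) had folds of 5.31 and 5.36, at percentiles 46.8 and 39.1. A weaker one (chr8:11714478-11715035) had 3.81 and 3.29, both below the 10th percentile of its list, at 9.11 and 4.78. The lost GATA4 region (chr8:11657876-11658387) lay upstream of the gene, 46.1 kb from the canonical start. Its folds in the DMSO lists were 4.04 and 3.05, at percentiles 55.9 and 12.9.

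The gained GATA6 regions were weak. The one in intron 2 shown above (chr18:22175320-22175699), inside exon 2 of the lncRNA gene ENSG00000264012, had folds of 4.33 and 4.39 at percentiles 22.3 and 23.3. Another in intron 6 (chr18:22190520-22190932) had folds of 4.14 and 3.26, and an intergenic one 72.6 kb downstream of the start (chr18:22241592-22242454) had 3.91 and 5.96. All 6 percentiles of these regions were 49.3 or lower. No GATA6 region was lost.

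GATA3 gained a region at its alternative upstream start (chr10:8045155-8045569, folds 3.14 and 4.60) and one in exon 2 of GATA3-AS1 (chr10:8050427-8051140, folds 3.80 and 4.08). Both lay within 10 kb upstream of the canonical start, and all 4 percentiles were 25.6 or lower. Both lost GATA2 regions lay upstream of the gene. The stronger (chr3:128532461-128532906) had folds of 4.00 and 4.05 with DMSO, at percentiles 54.7 and 49.1. The weaker (chr3:128517576-128518100) had folds of 3.49 and 2.72, at percentiles 32.2 and 3.64. DMSO replicate 1 alone held another 7 of the 12 regions of the GATA2 locus, beside 29674 of all 164301 regions. I-BET151 replicate 2 alone held another 6 of the 10 regions of the GATA5 locus, beside 36700 of all 164301.

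The counts moved with the libraries and with the length of the lists. Without DMSO replicate 2, 10 of 71 regions were gained (14.1%, beside 18.3% of all) and 19 of 71 were lost (26.8%, beside 20.9%). Without I-BET151 replicate 2, 17 of 58 were gained (29.3%, beside 35.8%) and 7 of 58 lost (12.1%, beside 5.82%). Without I-BET151 replicate 1, 23 of 61 were gained (37.7%, beside 43.7%). When each list was cut to the number of peaks in the shortest, keeping its peaks of lowest p-value, 0 of 28 GATA regions were gained, beside 9.19% of all, and 3 of 28 were lost (10.7%), beside 5.85%.

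Among the 25627 regions found in all 4 lists, limma called 3.41% up and 1.96% down in rank with I-BET151 at an adjusted p under 0.05. Of the 13 GATA regions, 1 was called up and 0 down, and 4 had an unadjusted p under 0.05, beside 24.9% of all. The region called lay in the GATA5 locus (chr20:62430173-62431298), 45.3 kb downstream of the GATA5 start, in intron 2 of the lncRNA gene ENSG00000233017 and near an alternative start of it. Its folds were 3.17 and 2.51 with DMSO and 6.06 and 9.60 with I-BET151. Its percentiles rose from 17.3 and 0.945 to 58.3 and 82.1, with no overlap, and its rank difference was 1.75 ± 0.43 SE (limma adjusted p = 0.0318).

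The pileups of this GATA5 region, not scaled to depth, were 31 and 23 reads with DMSO and 23 and 68 with I-BET151. The I-BET151 libraries were the shallower ones, at 12.5 and 16.0 M implied reads beside 38.7 and 36.6 M with DMSO. On the log2 pileup centred within each library the region's difference was 0.05 (limma adjusted p = 0.913). Ranked by p-value in place of fold, it missed the threshold (adjusted p = 0.185). It also missed it without DMSO replicate 1 (difference 2.11, adjusted p = 0.0599) and without DMSO replicate 2 (difference 1.22, adjusted p = 0.324), and kept it without either I-BET151 library (0.00736 without replicate 1, 0.0212 without replicate 2). Where 1 library of a condition was left, the spread came from the other condition, and the lone library was assumed to vary alike. The −log10 p of this region was 8.54 and 4.94 with DMSO and 13.7 and 46.3 with I-BET151. At a −log10 p of at least 5, the threshold in the study's methods, it was therefore not in all 4 lists. Of the 11 GATA regions in all 4 lists at that threshold, limma called 0, and 3 had an unadjusted p under 0.05.

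The distal region 40.3 kb upstream of GATA6 (chr18:22129022-22129847), shown above, lay lower in the lists than the start region, at percentiles of 34.2 and 18.9 with DMSO and 34.4 and 55.6 with I-BET151. The lower I-BET151 value was within 1 percentile of the higher DMSO value, and the rank difference was 0.01 ± 0.38 SE (limma adjusted p = 0.995).

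GATA4 intron 2 held 3 regions found in all 4 lists. The farthest from the start (chr8:11743830-11744623, 40.2 kb) had percentiles of 29.4 and 44.2 with DMSO and 71.7 and 82.0 with I-BET151, with no overlap, and a rank difference of 0.74 ± 0.40 SE (adjusted p = 0.264). At 32.4 kb (chr8:11736286-11737691) the percentiles were 83.3 and 68.8 against 80.1 and 74.9, and at 14.8 kb (chr8:11718773-11719494), whose window held 3 GATA words, they were 64.5 and 35.9 against 36.5 and 75.7. Both of these pairs overlapped. The FDFT1 start (chr8:11802085-11803155) had percentiles of 97.4 and 96.3 against 97.2 and 97.1. The NEIL2 start (chr8:11769383-11770236) had 71.8 and 70.5 against 93.8 and 98.3, and its rank difference of 1.25 ± 0.40 SE lay just outside the threshold (adjusted p = 0.0761).

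A shared region 49.1 kb downstream of the GATA3 start (chr10:8103096-8103969), had percentiles of 27.3 and 9.46 against 28.1 and 32.8. Its rank difference was -0.08 ± 0.38 SE (limma adjusted p = 0.919). Its pileups were 18 and 15 reads with DMSO and 9 and 12 with I-BET151. These raw reads were not scaled to the lower depth of the I-BET151 libraries (12.5 and 16.0 M implied reads beside 38.7 and 36.6 M). They do not show a fall at equal depth. Scaled to depth, the median log2 change with I-BET151 over all 25627 shared regions was 1.58 (replicate 1 libraries) and 2.24 (replicate 2 libraries). Relative to the median of each library, on the centred log2 pileup, the region passed limma's test downward (-1.18 ± 0.25 SE, adjusted p = 0.0371). The alternative FDFT1 start in the GATA4 locus passed it upward on that scale (0.88 ± 0.20 SE, adjusted p = 0.0424), and no other GATA region did. The median percentile change was 14.6 over the 13 GATA regions and 6.21 over all 25627.

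**Figure D2:**
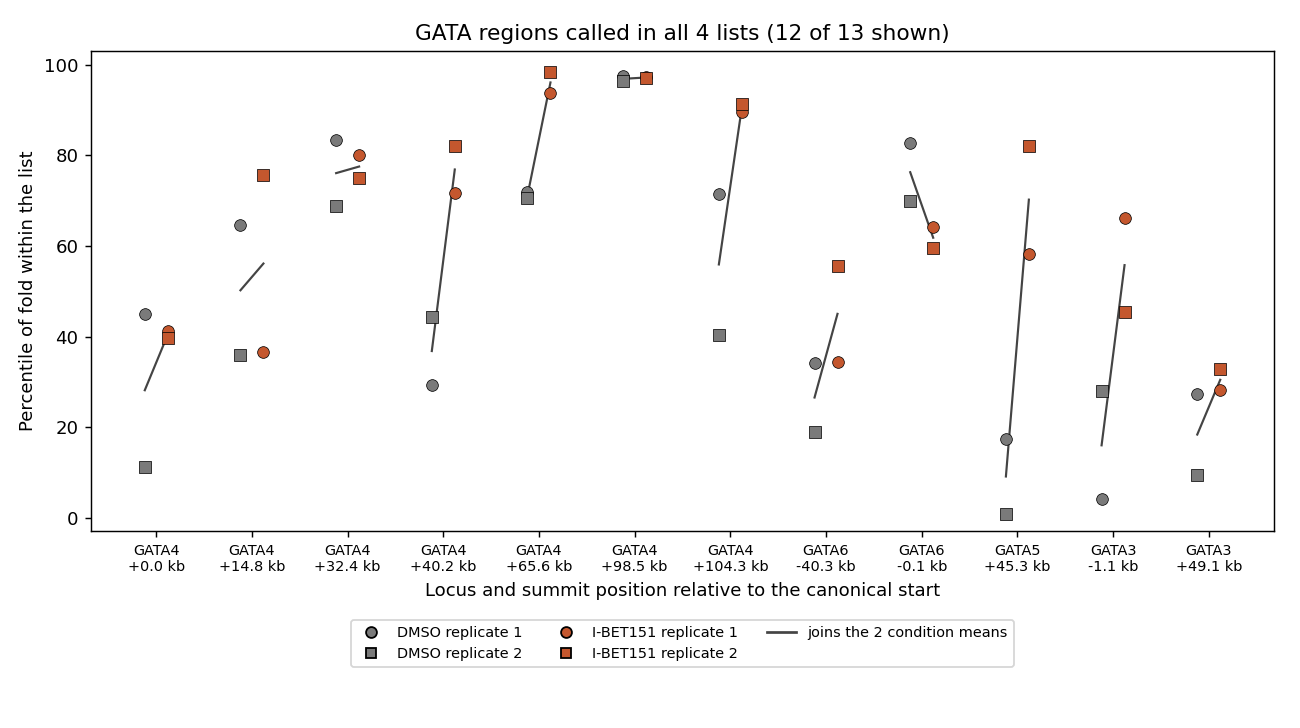
Percentile of fold within the list (y axis) of 12 of the 13 GATA regions found in all 4 lists, labelled by locus and by distance from the canonical start (x axis). Points are libraries and lines join the means of the conditions, and the GATA5 region at 45.3 kb has the steepest line, whereas the GATA6 start region is the one plotted whose mean falls (76.2 to 61.8).

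Each locus was also given a score per library, the mean percentile of its regions with 0 where a list had no call, and the scores of 19326 protein-coding loci were computed likewise. Over all loci the score was higher in both I-BET151 lists than in both DMSO lists for 50.4% and lower in both for 1.64%, with a median difference of 10.5. Leaving out 1 library moved this median to 4.69 without DMSO replicate 2 and 20.6 without DMSO replicate 1, and to 15.5 and 8.18 without I-BET151 replicates 1 and 2. Of the 5 GATA loci, 3 were higher without overlap and 0 lower. The exact permutation test (two-sided) of 2 against 2 libraries cannot go below p = 0.333.

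GATA4 scored 33.6 and 18.8 with DMSO and 36.6 and 36.3 with I-BET151, the highest level of the 5 loci in every list, with no overlap (difference 10.3, exact permutation p = 0.333). Without the regions at the NEIL2 and FDFT1 starts it scored 26.2 and 10.8 against 27.7 and 26.9 (difference 8.76), and in I-BET151 replicate 2 it then lay below GATA6 (29.1) and GATA5 (32.2). Without DMSO replicate 2 its difference was 2.89. With lists of equal length it scored 28.4 and 31.8 against 33.0 and 31.0, which overlapped (difference 1.86, beside a median of -0.212 over all loci). GATA6 scored 23.7 and 10.3 against 16.1 and 29.1, which overlapped (difference 5.58, exact permutation p = 0.667). Its direction was not stable, with -3.55 without DMSO replicate 2, -1.21 without I-BET151 replicate 2, and -22.8 with lists of equal length.

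GATA5 had the lowest DMSO scores, 2.95 and 0.0945, and 9.23 and 32.2 with I-BET151, with no overlap (difference 19.2, exact permutation p = 0.333). Within 5 kb of the gene the GATA5 locus had 1 region, called in I-BET151 replicate 2 alone, and a difference of 5.57. GATA3 scored 12.8 and 4.15 with DMSO and 14.2 and 19.9 with I-BET151, also with no overlap (difference 8.59, exact permutation p = 0.333), and with lists of equal length its difference was -3. GATA2 was the locus with a lower mean after I-BET151, 20.2 and 4.65 with DMSO against 1.68 and 7.34, but its scores overlapped (difference -7.93, exact permutation p = 0.667). Among the differences of all loci it stood at percentile 4.41. It turned to 16.1 when only the gene body and 5 kb on each side were used, to 3.42 with 100 kb on each side, and to 8.08 with peaks of −log10 p of at least 10. By mean level, the order was GATA4, GATA6, GATA3, GATA5 and GATA2. It rests on 2 libraries a condition, and whether neighbours in that order differ was not tested.

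Comparing GATA4 and GATA6 with GATA2, GATA3 and GATA5 directly, the endodermal mean scored above the other mean in all 4 libraries, by 16.7 and 11.6 with DMSO and by 18.0 and 12.8 with I-BET151. The endodermal mean was 28.6 and 14.5 with DMSO and 26.4 and 32.7 with I-BET151, and the other mean 12.0 and 2.97 against 8.37 and 19.8. The median over all 19326 loci was 28.2 and 15 with DMSO and 28.8 and 36.9 with I-BET151. Thus the endodermal mean lay below that median in every list but DMSO replicate 1. Between the sets the gap averaged 14.1 ± 3.59 under DMSO and 15.4 ± 3.66 under I-BET151 (SD of 2 libraries each), a change of 1.31 that lay within the spread between libraries (exact permutation p = 0.667). Its direction turned in 4 of the alternatives, among them without DMSO replicate 2 (-2.30) and lists of equal length (-10.7). Without regions at start sites of other protein-coding genes, the gap averaged 10.3 under DMSO and 10.8 under I-BET151.

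The protein-coding loci closest to each GATA locus over the 4 library scores were named from 17522 loci with at least 5 regions, by Euclidean distance in percentile points. They were CCNYL1 (0.875) and YPEL1 (1.27) for GATA4, FOXA1 (1.63) and BCL2L10 (1.85) for GATA6, and UNC5A (3.44) and SRPX (4.34) for GATA5. For GATA2 they were SOCS1 (2.76) and GLT6D1 (2.85), and for GATA3 CCKAR (1.3) and OTOS (1.72). FOXA1, which encodes a forkhead pioneer factor of endoderm, scored 23.8 and 11.7 with DMSO and 15.3 and 29.1 with I-BET151. With 4 values a locus, these are descriptions of the lists.

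Other zinc finger relatives and cofactors of GATA factors were read in the same way. Of 8 loci, 6 scored higher in both I-BET151 lists, 0 lower, and 2 (ZGLP1 and GATAD1) overlapped. ZFPM1 and ZFPM2, the FOG cofactors that bind GATA zinc fingers, scored 11.7 and 7.87 against 20.8 and 32.4, and 16.5 and 5.99 against 23.3 and 26.5. GATAD2B, a subunit of the NuRD remodelling complex, scored 34.7 and 19.1 against 45.8 and 45 and held the 1 region of this list called up in rank. TRPS1, a GATA-type repressor, scored 27.1 and 17.1 against 36.1 and 34.3. Of their 181 regions, 40 were gained (22.1%, beside 17% of all) and 8 lost (4.42%, beside 2.37%), and 1 of the 34 in all 4 lists was called up in rank, beside 3.41% of all.

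Of 12 partner factors, 7 loci scored higher in both I-BET151 lists, 0 lower, and 5 overlapped. TAL1, LMO2 and LDB1, which form a complex with GATA factors in blood cells, were among the 7, with TAL1 at 10.8 and 6.53 against 18.5 and 36.0. The TAL1 start itself went the other way, with a peak in each DMSO list and none with I-BET151. HAND2 and MEF2C, cardiac partners, scored 18.3 and 0 against 27.7 and 42.9, and 20.7 and 14.4 against 39.2 and 47.2. FOXA2, which works beside GATA4 and GATA6 in endoderm, scored 20.8 and 8.52 against 22.7 and 27.4. Of the 144 partner regions, 22 were gained (15.3%, beside 17%) and 2 lost (1.39%, beside 2.37%), and of the 29 in all 4 lists 2 were called up in rank (3.41% of all), at TAL1 and LDB1. The shares of loci higher without overlap in these lists, 6 of 8 and 7 of 12, stand beside 50.4% of all loci.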

How the data were processed

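ATAC-seq peak lists of 4 libraries (2 DMSO, 2 I-BET151) were used. Reads were mapped to hg38 by the authors with Bowtie2 (v2.2.5), and MACS2 (v2.1.2) was run on every library by itself. Each deposited list gives per peak a score for display (not used), the fold enrichment (a ratio), −log10 of the p-value and −log10 of the q-value. The weakest peaks had a −log10 q between 1.3 and 1.33, although the study's methods give a threshold that corresponds to a −log10 p of 5. The pileup was solved from the fold and the p-value, in 99.9% to 100% of peaks, and at the default genome size of MACS2 the background corresponds to 38.7, 36.6, 12.5 and 16.0 M reads. Sites absent from a list may lie under its limit of detection.

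Peaks on chromosomes 1 to 22, X and Y that shared at least 1 bp were merged, and a region took the highest fold of its peaks in each list. Genes were taken from GENCODE release 44 and sequence from hg38. Ranks of regions in all 4 lists were compared with limma 3.58.1 (R 4.3.3) and Benjamini-Hochberg adjustment over all regions, locus scores with exact permutation tests (Python 3.11.15, scipy 1.17.1). Scripts were tested on simulated data. Described regions were those within 1 kb of the canonical start, those passing limma, the strongest gained, lost and distal shared region of each locus, and further regions chosen after their values were seen. Some items are not reported here. Members and gene lists were chosen with earlier results of these data known. Alternatives were stricter thresholds (−log10 p of at least 5 or 10), lists of equal length, 50% coverage, windows of 5 and 100 kb, other ranks, a replicate block and leaving out each library.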

Additional observations from a re-analysis of the deposited data

How the results depend on the processing

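Under a −log10 p of at least 10, 4 of 29 GATA regions were gained (13.8%, beside 23.3% of all) and 0 lost (beside 0.269% of all). With lists of equal length, 0 were gained and the score differences were 1.86 (GATA4), 13.6 (GATA5), -22.8 (GATA6), -3 (GATA3) and -10.7 (endodermal against other loci). With windows of 5 kb, 0 of 30 were lost (beside 2.37% of all), GATA5 differed by 5.57 and GATA2 by 16.1, the endodermal comparison by -4.68. With windows of 100 kb, 20 of 126 regions were gained (15.9%, beside 17% of all) and 6 lost (4.76%, beside 2.37%). The GATA2 and endodermal differences were then 3.42 and -0.931. GATA2 differed by 8.08 under a −log10 p of at least 10. Leaving out each library in turn gave 10 to 23 gained and 3 to 19 lost regions, 0 to 3 GATA regions called in rank, 117 to 1777 regions of all called up and 119 to 1707 down. It gave score differences of 2.89 to 19.5 (GATA4), -3.55 to 13.8 (GATA6), 17.8 to 30.7 (GATA5), -15.7 to -0.337 (GATA2), 3.84 to 19.4 (GATA3) and -2.30 to 2.29 (endodermal comparison). The cause of these shifts was not tested. The p-value rank called 0 GATA regions (3 with an unadjusted p under 0.05 by limma), and 8 up and 27 down of all (875 up and 503 down by fold). Centred log2 pileup called 2 GATA regions, and 184 up and 1225 down of all. At a −log10 p of at least 10, rank called 1 GATA region, the NEIL2 start (adjusted p = 0.00906 by limma), and the GATA5 region was no longer in all 4 lists. At a −log10 p of at least 5, 9 were gained (13.4%, beside 18.1% of all) and 2 lost (2.99%, beside 1.94%). The score differences were then 10.6 (GATA4), 2.99 (GATA6), 17.4 (GATA5), -9.04 (GATA2) and 7.51 (GATA3) beside 11.6 over all loci. Rank at that threshold, a fit chosen after seeing the data, called 0 of 11 GATA regions (3 with an unadjusted p under 0.05 by limma). It called 873 up and 492 down of all. Without DMSO replicate 2 the region called was another one of the GATA5 locus, 9.28 kb upstream (2.30 ± 0.60 SE, limma adjusted p = 0.0192).

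Same-numbered libraries deviated in opposite directions (r = -0.14 across 25627 regions), so this check shows no pairing, and the labels do not say whether same-numbered libraries were made together. The replicate block called 1 GATA region, the same GATA5 region (limma adjusted p = 0.00845), with 985 up and 652 down of all, and as paired differences left every score difference as it was, since the mean of pairs equals the difference of means. A block with crossed numbers, chosen after seeing the data, called 2 GATA regions, with 1985 up and 1567 down of all. Leaving out regions at starts of other protein-coding genes was also chosen after seeing the data. It left 8 of 66 regions gained (12.1%, beside 17% of all) and 3 lost (4.55%, beside 2.37%), and an endodermal difference of 0.545. Over regions in all 4 lists the endodermal comparison gave no value, because GATA2 had none.

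The lists end at a q-value of 0.05, and the I-BET151 libraries had the lower background. Pileups at shared GATA regions were as low as 9 reads, so counting error is part of the spread between libraries there. An exact test cannot pass with 2 libraries a condition.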
